A study of Mus musculus with 30 samples.

Results

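Zinc finger genes of the distal chromosome 4 cluster were followed through the prefrontal cortex of mice heterozygous for Adnp. The rule names 9 genes, Zfp992, Zfp991, Zfp982, Zfp984, Zfp985, Zfp989, Zfp990, Zfp600 and Zfp534, and 4 of them, Zfp992, Zfp991, Zfp982 and Zfp984, have a row among the 18240 genes of the table. The other 5 have no row in the table used here and were not analysed. The genes were chosen with the comparison of HT vehicle with WT vehicle mice already known. Their differences between the genotypes are therefore given as a description, without a test.

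KRAB zinc finger proteins carry an array of C2H2 zinc fingers that reads DNA, often within retrotransposons, and a KRAB domain that binds the co-repressor TRIM28. TRIM28 in turn brings the histone methyltransferase SETDB1 and the heterochromatin protein HP1, so that bound loci are kept silent. The genes lie in clusters that grew by duplication, and the distal chromosome 4 cluster of the mouse is a young one with many near copies. ADNP is a homeodomain zinc finger protein that acts on chromatin in a complex with CHD4 and HP1.

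All mice were C57BL/6J, 40 days old, and either heterozygous (HT) or wild type (WT) for Adnp. The libraries were from HT mice given fluoxetine, a serotonin reuptake inhibitor (4 female and 4 male), HT mice given lithium, a mood stabilizer (3 and 4), HT mice given vehicle (4 and 3) and WT mice given vehicle (4 and 4). No WT mice given a drug are among the samples, so the drugs can be compared with vehicle only within HT mice. The sources used here give neither the allele nor the doses nor the length of treatment. The labels do not say whether each library came from a separate mouse.

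RNA was sequenced as stranded poly(A) libraries of bulk tissue, in 1 batch by the labels. Libraries held 23771758 to 34307061 reads assigned to genes. Values are normalized counts, that is, reads divided by 1 size factor per library. In bulk tissue, fewer cells of a type and less RNA per cell cannot be told apart. Gm20716 overlaps Adnp, and how reads divide between them was not measured. The sum of both was 3404 to 3887 in the 22 HT libraries and 4226 to 4433 in the 8 WT libraries. These ranges do not overlap. Adnp alone was at 1886 to 2491 in HT and 1703 to 2228 in WT libraries. The excitatory neuron, inhibitory neuron, astrocyte, oligodendrocyte and microglia markers of cortex were all present. HT lithium male 4 and HT vehicle female 1 were the libraries of lowest summed normalized count, at 26796700 and 27823600.

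The copies are close enough in sequence to bear on every count below. The first 150 coding bases of the 4 genes are shown because they begin the KRAB domain. Capitals mark the 14 of 150 positions at which the 4 genes are not all alike, and lower case the other 136 (GRCm38, GENCODE transcripts, 5′ to 3′).
Zfp992: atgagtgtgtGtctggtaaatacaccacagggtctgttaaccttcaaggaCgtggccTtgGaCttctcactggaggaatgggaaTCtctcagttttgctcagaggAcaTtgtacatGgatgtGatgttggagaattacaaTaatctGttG
Zfp991: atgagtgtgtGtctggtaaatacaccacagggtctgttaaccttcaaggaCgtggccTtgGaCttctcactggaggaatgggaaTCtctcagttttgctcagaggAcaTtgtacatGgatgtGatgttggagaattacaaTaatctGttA
Zfp982: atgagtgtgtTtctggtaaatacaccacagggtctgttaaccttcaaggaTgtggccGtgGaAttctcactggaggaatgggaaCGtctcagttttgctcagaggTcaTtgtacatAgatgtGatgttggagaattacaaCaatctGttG
Zfp984: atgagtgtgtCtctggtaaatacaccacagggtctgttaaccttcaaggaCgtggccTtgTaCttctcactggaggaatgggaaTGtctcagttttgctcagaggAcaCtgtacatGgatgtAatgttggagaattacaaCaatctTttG

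Zfp992 and Zfp991 are the closest pair. Their coding sequences are identical at 1711 of 1719 aligned bases, or 99.5%. The other 5 pairs are identical at 87.9% to 91.2% of aligned bases. A search of the translated coding sequence found 11 C2H2 zinc fingers in each of Zfp992, Zfp991 and Zfp984 and 7 in Zfp982.

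Zfp992 lies on chromosome 4 at 146449023 to 146470292 (plus strand, GRCm38), Zfp991 at 147132038 to 147180579 (plus), Zfp982 at 147492417 to 147513486 (plus) and Zfp984 at 147753974 to 147809788 (minus). Their Ensembl identifiers are ENSMUSG00000070605, ENSMUSG00000067916, ENSMUSG00000078496 and ENSMUSG00000078495, in that order. All 4 are annotated as protein coding.

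Much of each transcript is also present elsewhere in the transcriptome. Of the distinct 31-base stretches of Zfp991, 88% occur in at least 1 other gene, 70.9% in Znf41-ps and 66.8% in Zfp992. Znf41-ps is a pseudogene of the same locus. For Zfp992 the share was 48.3%, with 41.7% in Zfp991. Zfp984 shares 68.8% of its stretches, 58.1% with Gm13212, and Zfp982 shares 29.7%. Reads from these stretches cannot be placed in a single gene by their sequence, so the counts of Zfp991, Zfp992, Znf41-ps and Zfp993 are uncertain one by one. The count of Zfp984 is uncertain too, as its share of such stretches is larger than that of Zfp992. Taken as a set, the 4 rows Zfp991, Zfp992, Zfp993 and Znf41-ps hold 80.7% of stretches that occur in no gene outside them. Their sum is therefore less affected.

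Promoter sequence was at hand for 5 of the 9 genes, of which Zfp982 and Zfp984 have a row. Both windows are shown because they share a stretch while the genes differ in their values, as described below. Capitals mark TGGGAAGCTAATTAA, the longest run that all 5 promoters have in common (RefSeq, GRCm38.p6, 250 bases before to 50 after the start, on the gene's strand).
Zfp982, chr4:147492167-147492466, plus strand: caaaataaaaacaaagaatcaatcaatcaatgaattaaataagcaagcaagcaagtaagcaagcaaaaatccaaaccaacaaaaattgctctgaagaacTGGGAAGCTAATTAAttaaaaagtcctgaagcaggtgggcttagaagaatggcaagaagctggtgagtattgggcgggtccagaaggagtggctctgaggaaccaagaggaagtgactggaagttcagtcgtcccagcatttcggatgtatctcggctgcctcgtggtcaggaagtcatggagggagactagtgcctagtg
Zfp984, chr4:147809739-147810038, minus strand: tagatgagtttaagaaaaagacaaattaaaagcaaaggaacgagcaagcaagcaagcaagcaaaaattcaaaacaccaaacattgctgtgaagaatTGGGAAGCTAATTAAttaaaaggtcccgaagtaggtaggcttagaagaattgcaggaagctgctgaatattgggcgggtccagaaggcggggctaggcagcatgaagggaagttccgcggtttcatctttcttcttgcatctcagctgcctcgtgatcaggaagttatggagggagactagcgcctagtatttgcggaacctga

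The run of 15 bases begins at position -151 of Zfp982 and -154 of Zfp984, counted from the annotated start. Searched on both strands, it was found in 12 of 32851 promoter windows, or 0.0365%. The 12 windows belong to 12 genes, and all 12 lie in the locus: Zfp982, Zfp984, Zfp985, Zfp534, Zfp600, Zfp979, Zfp980, Zfp981, Zfp987, Zfp988, Rex2 and Gm13212. The match is a description of these windows and not a binding site.

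Zfp992 had the widest gap between the genotypes among the 4 genes. In HT fluoxetine libraries its normalized count was 86.54, 63.63, 69.84 and 44.62 in females and 66.68, 64.39, 78.25 and 81.03 in males. In HT lithium libraries it was 66.71, 88.62 and 81.81 in females and 68.09, 72.18, 76.73 and 89.96 in males. In HT vehicle libraries it was 79.02, 78.11, 94.11 and 83.87 in females and 73.97, 79.45 and 64.48 in males.
In WT vehicle libraries it was 41.23, 38.68, 34.71 and 29.49 in females and 31.29, 15.42, 31.73 and 29.13 in males. All 22 HT libraries lay above all 8 WT libraries, the lowest HT library at 44.62 and the highest WT library at 41.23. Among the 16824 genes tested, those with a mean of at least 10, 0.172% had every HT library above every WT library. The genes were chosen on this contrast, so nothing is read from that count.

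Mean Zfp992 was 69.4 ± 13 in HT fluoxetine (SD, n = 8), 77.7 ± 9.41 in HT lithium (n = 7), 79 ± 9.03 in HT vehicle (n = 7) and 31.5 ± 7.79 in WT vehicle (n = 8). HT vehicle was 2.51-fold higher than WT vehicle, a log2 fold change of 1.32 (SE 0.139) on the scale log2(normalized count + 1), used throughout. It was higher in each sex, at 2.3-fold in females and 2.73-fold in males. HT fluoxetine and HT lithium were 2.2-fold and 2.49-fold above the same WT libraries.

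Zfp991 had the highest count of the 4 genes and was next in the size of its difference. Its lowest, median and highest values were 133, 152 and 208 in HT fluoxetine, 145, 162 and 198 in HT lithium, 121, 161 and 178 in HT vehicle and 66.6, 97.7 and 131 in WT vehicle. The mean was 157 ± 22.4 in HT fluoxetine (SD, n = 8), 165 ± 16.8 in HT lithium (n = 7), 159 ± 20.6 in HT vehicle (n = 7) and 96 ± 18.8 in WT vehicle (n = 8). Of the 22 HT libraries, 21 lay above the highest WT library, WT vehicle female 2 at 131.1, and HT vehicle male 3 at 121.4 did not. HT vehicle was 1.66-fold higher than WT vehicle (log2 fold change 0.73, SE 0.111), at 1.65-fold in females and 1.67-fold in males.

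Zfp982 showed a smaller difference of the same sign. Its lowest, median and highest values were 53.2, 57.9 and 68.2 in HT fluoxetine, 59.5, 66.7 and 91.1 in HT lithium, 52.7, 63.4 and 88.9 in HT vehicle and 34.3, 51.1 and 53.9 in WT vehicle. The mean was 59.9 ± 5.72 in HT fluoxetine (SD, n = 8), 70.4 ± 9.98 in HT lithium (n = 7), 68.5 ± 12.4 in HT vehicle (n = 7) and 46.9 ± 7.69 in WT vehicle (n = 8). The groups touch at their edges, with 20 of 22 HT libraries above the highest WT library. HT vehicle was 1.45-fold higher than WT vehicle (log2 fold change 0.53, SE 0.117). HT fluoxetine was 1.28-fold and HT lithium 1.49-fold above WT vehicle.

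Zfp984 was at nearly the same level in both genotypes given vehicle. Its lowest, median and highest values were 66.5, 74.2 and 94.1 in HT fluoxetine, 76.3, 90 and 109 in HT lithium, 71.1, 83.1 and 92.2 in HT vehicle and 65.6, 76.9 and 92.4 in WT vehicle. The mean was 77.5 ± 10.1 in HT fluoxetine (SD, n = 8), 91.4 ± 12 in HT lithium (n = 7), 82.2 ± 8.8 in HT vehicle (n = 7) and 78.1 ± 9.45 in WT vehicle (n = 8). The groups overlap, and 4 of 22 HT libraries lay above the highest WT library. The log2 fold change of HT vehicle over WT vehicle was 0.06 (SE 0.086), or 1.04-fold, well within the spread of the libraries.

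**Figure D1:**
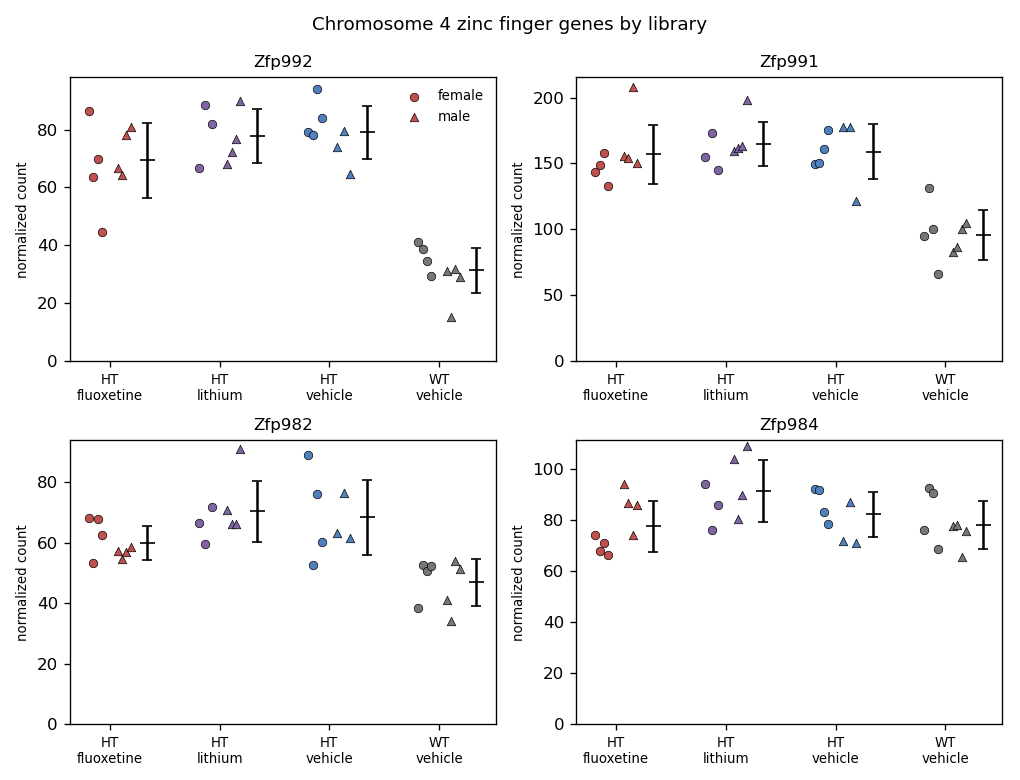
Normalized count of each gene (vertical axis, from 0) in each library, with HT fluoxetine, HT lithium, HT vehicle and WT vehicle from left to right. Circles are female and triangles male libraries, and the bar beside each group is its mean and SD. For Zfp992 all 22 HT libraries lie above the 8 WT libraries, while for Zfp984 the groups overlap.

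All 4 genes passed the filter on low values, with means over all libraries of 63.5 for Zfp992, 143 for Zfp991, 60.9 for Zfp982 and 82 for Zfp984.

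The copies are near-identical, so their counts were also added in each library. The sum was 372.6, 333.8, 366.2 and 306.7 in HT fluoxetine females and 373.9, 360, 417.7 and 375.8 in males. It was 382.4, 397.1 and 384.4 in HT lithium females and 402.7, 380.7, 396 and 488 in males. In HT vehicle it was 409.4, 373, 414.5 and 397.9 in females and 386.3, 421.2 and 318.6 in males.
In WT vehicle it was 251, 315.1, 276.8 and 216.9 in females and 233.1, 214.1, 251.7 and 261.2 in males. Of the 22 HT libraries, 21 had a sum above every WT library, and HT fluoxetine female 4 at 306.7 lay below WT vehicle female 2 at 315.1. The mean sum was 363 ± 32.5 in HT fluoxetine, 404 ± 37.8 in HT lithium, 389 ± 35.1 in HT vehicle and 252 ± 33.2 in WT vehicle (SD, n = 8, 7, 7 and 8). HT vehicle was 1.54-fold higher than WT vehicle (log2 0.62), HT fluoxetine 1.44-fold (0.53) and HT lithium 1.6-fold (0.68). Without Zfp991 and Zfp992 the sum of Zfp982 and Zfp984 was 151 ± 17.9 in HT vehicle and 125 ± 12.2 in WT vehicle, a log2 ratio of 0.26.

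The make-up of the counted sum is described next. It follows from the unequal genotype differences of the single genes given above and is not a separate result. It also rests on how reads were split among the copies, which is uncertain. Zfp992 took 19% ± 2.59 of the sum in HT fluoxetine, 19.2% ± 1.96 in HT lithium, 20.3% ± 1.37 in HT vehicle and 12.4% ± 2.6 in WT vehicle. Zfp984 took 21.4% ± 2.53 in HT fluoxetine, 22.6% ± 2.17 in HT lithium, 21.2% ± 2.06 in HT vehicle and 31.1% ± 3.16 in WT vehicle. The share of Zfp991 was 40.8% to 43% in the HT groups and 37.8% in WT vehicle. That of Zfp982 was 16.6% to 17.6% in the HT groups and 18.7% in WT vehicle. Within the closest pair, the count of Zfp992 was 0.446 ± 0.0861 of that of Zfp991 in HT fluoxetine, 0.472 ± 0.05 in HT lithium, 0.501 ± 0.0569 in HT vehicle and 0.333 ± 0.0871 in WT vehicle.

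**Figure D2:**
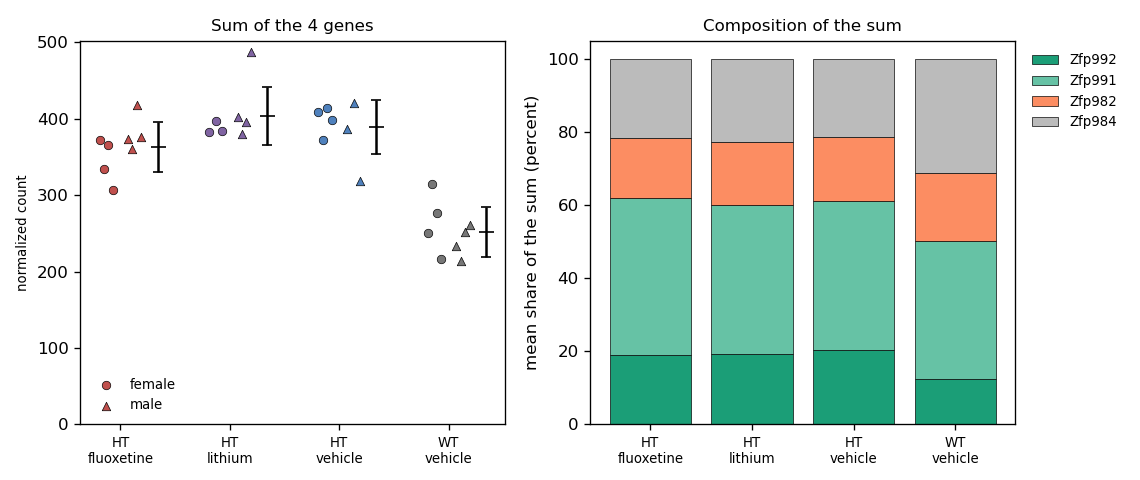
Left, the summed normalized count of the 4 genes in each library by group, with mean and SD, circles for females and triangles for males. Right, the mean percent of that sum from each gene. The WT vehicle sum is the lowest, at 252 ± 33.2, and Zfp992 is 12.4% of it against 20.3% in HT vehicle.

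Per kilobase of annotated exon, the order of levels in each of the 4 conditions was Zfp991, Zfp982, Zfp984 and Zfp992. In HT vehicle the normalized counts per kilobase were 54.5 ± 7.07 for Zfp991, 46 ± 8.36 for Zfp982, 28.2 ± 3.02 for Zfp984 and 17.4 ± 1.98 for Zfp992 (SD, n = 7). In WT vehicle they were 32.9 ± 6.45 for Zfp991, 31.5 ± 5.17 for Zfp982, 26.8 ± 3.25 for Zfp984 and 6.91 ± 1.71 for Zfp992 (SD, n = 8). Zfp991 and Zfp982 overlap in HT vehicle and in WT vehicle and do not differ beyond their spread, and in WT vehicle Zfp982 and Zfp984 overlap too. Zfp992 stood lowest, below every Zfp984 library in both groups. This order rests on the annotated exon length, 4.55 kb for Zfp992 and 2.92 kb for Zfp991, and on the uncertain split of reads among copies.

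The question of the drug comparisons is whether either treatment moved these genes in HT mice. Neither contrast with vehicle was the one that chose them, but both reuse its HT vehicle libraries. Genes chosen for high values in those libraries can come out lower under a drug through the choice alone. Of the drug comparisons, only fluoxetine over lithium uses no library of the comparison that chose the genes. A gene was counted as called where limma gave it a Benjamini-Hochberg adjusted p under 0.05 over all genes tested. Under fluoxetine against vehicle, 0 of the 4 genes were called, beside 0.0357% of all genes tested, and 0 had an unadjusted p under 0.05 by limma. edgeR also called 0. The log2 fold changes were -0.19 for Zfp992 (95% interval -0.47 to 0.10), -0.02 for Zfp991 (-0.25 to 0.21), -0.17 for Zfp982 (-0.41 to 0.07) and -0.07 for Zfp984 (-0.25 to 0.10).

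Under lithium against vehicle, limma and edgeR again called 0 of the 4, beside 0.0892% of all genes, with 0 at an unadjusted p under 0.05. The log2 fold changes were -0.01 for Zfp992 (95% interval -0.30 to 0.29), 0.05 for Zfp991 (-0.18 to 0.29), 0.04 for Zfp982 (-0.21 to 0.29) and 0.15 for Zfp984 (-0.04 to 0.33). Between the drugs, fluoxetine over lithium, 0 of 4 were called by limma or edgeR, where 0% of all genes were, and 1 of the 4 had an unadjusted p under 0.05. That gene was Zfp984, at -0.22 (95% interval -0.40 to -0.05, limma adjusted p = 0.648). Its mean was 77.5 ± 10.1 in HT fluoxetine (n = 8) and 91.4 ± 12 in HT lithium (n = 7), and the groups overlap. Zfp992, Zfp991 and Zfp982 stood at -0.18, -0.07 and -0.21.

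The sum is given without a test, since the genes were picked together. Its log2 ratio was -0.09 for fluoxetine over vehicle, 0.06 for lithium over vehicle and -0.15 for fluoxetine over lithium. HT lithium male 4 had the highest sum of all libraries, 488, and without it the ratio of lithium to vehicle was 0.02. Without HT vehicle male 3, which had the lowest sum of the HT vehicle group, 318.6, the ratio was 0.0012. With HT lithium male 4 and HT vehicle female 1 both left out, 0 of the 4 genes were called by limma in each of the 3 comparisons within HT mice.

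**Figure D3:**
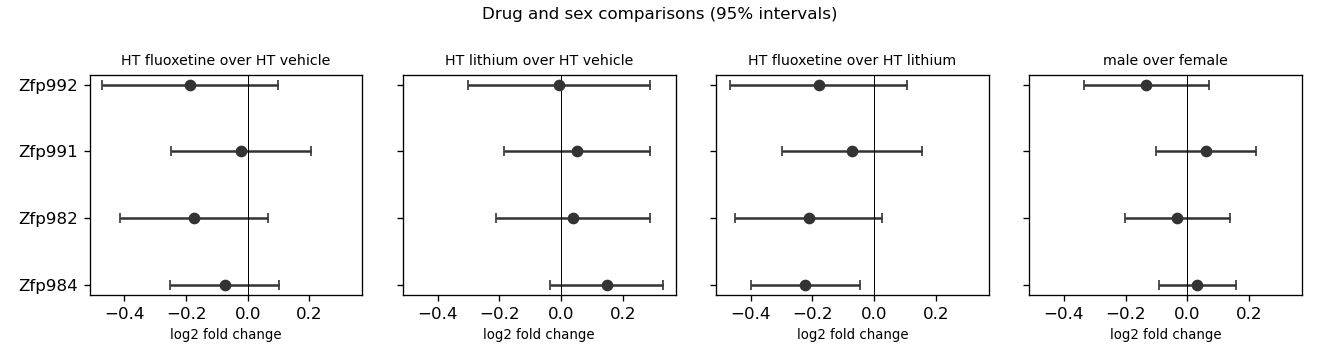
Log2 fold change of each gene (horizontal axis) for fluoxetine over vehicle, lithium over vehicle, fluoxetine over lithium, all in HT mice, and for male over female, with 95% intervals from limma. Of the 16 intervals, that of Zfp984 for fluoxetine over lithium (-0.40 to -0.05) leaves out 0, and none of the 16 was called after adjustment.

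Males and females were compared over all 4 conditions. Of the 4 genes, 0 were called by limma or edgeR and 0 had an unadjusted p under 0.05, beside 0.214% of all genes called. Male over female log2 fold changes were -0.13 for Zfp992 (95% interval -0.33 to 0.07), 0.06 for Zfp991 (-0.10 to 0.22), -0.03 for Zfp982 (-0.20 to 0.14) and 0.03 for Zfp984 (-0.09 to 0.16).

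Whether an effect differed between the sexes was tested as an interaction. For HT vehicle over WT vehicle 0 of the 4 genes were called, where 0% of all genes were, edgeR also called 0, and 0 had an unadjusted p under 0.05. The differences, male minus female, ranged between -0.04 for Zfp984 and 0.25 for Zfp992 (95% interval -0.32 to 0.82). For fluoxetine, 0 were called by limma or edgeR, beside 0% of all genes, and 1 had an unadjusted p under 0.05. That gene was Zfp984, with a difference of 0.45 on the log2 scale (95% interval 0.10 to 0.81, limma adjusted p = 0.779). In females it was 69.9 ± 3.49 in HT fluoxetine (n = 4) and 86.4 ± 6.73 in HT vehicle (n = 4), and in males 85.2 ± 8.3 (n = 4) and 76.6 ± 9.09 (n = 3). For lithium 0 were called by limma or edgeR, beside 0% of all genes, and 0 had an unadjusted p under 0.05, with differences of 0.13 to 0.34, the last for Zfp984 (95% interval -0.03 to 0.70).

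The surroundings of the genes on chromosome 4 were then examined, 1 Mb to each side of the named set (144510759 to 148809788). Besides the 4 genes, 41 genes of this stretch have a row and 34 passed the filter. Between HT vehicle and WT vehicle, 2 of the 34 were called higher and 0 lower, beside 0.731% of all genes called in either direction. Of the 34, 24 had a positive log2 fold change (70.6%, against 49.3% of all genes), and the median was 0.03 against -0.00 over all genes. Both called genes are zinc finger copies. Znf41-ps, the pseudogene closest to Zfp991, averaged 158 ± 19.6 in HT vehicle (n = 7) and 84.9 ± 21.2 in WT vehicle (n = 8), or 0.92 on the log2 scale (limma adjusted p = 1.28e-05). Zfp993, a zinc finger gene, averaged 37.2 ± 8.22 in HT vehicle (n = 7) and 19.3 ± 5.98 in WT vehicle (n = 8), or 0.94 on the log2 scale (limma adjusted p = 0.00679).

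Both rows share most of their sequence with Zfp991 and Zfp992, so they are not separate evidence. Of the 31-base stretches of Znf41-ps 92.6%, and of those of Zfp993 88.5%, occur in Zfp991 or Zfp992. Added together, Zfp991, Zfp992, Zfp993 and Znf41-ps reached 423 ± 59.7 in HT fluoxetine, 446 ± 32.3 in HT lithium, 433 ± 43.9 in HT vehicle and 232 ± 41.7 in WT vehicle (SD, n = 8, 7, 7 and 8). The lowest HT library was at 326.6 and the highest WT library at 309.4, so all 22 HT libraries lay above all 8 WT libraries in this sum. The sum includes both chosen genes Zfp991 and Zfp992. Its other rows, Znf41-ps and Zfp993, were called higher in the same comparison of HT vehicle with WT vehicle. The separation of the genotypes is thus largely built into the sum, and nothing is read from it. How reads are split among the 4 rows plays no part in the sum.

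Zinc finger rows with little of that sequence differed widely in their log2 fold change. Zfp979 and Zfp933, zinc finger genes with 1.49% and 0% of their stretches in Zfp991 or Zfp992, had log2 fold changes of 0.18 and 0.08 and were not called. Zfp982 and Zfp984 have nearly equal shares, 9.34% and 9.51%, with log2 fold changes of 0.53 and 0.06. The 3 zinc finger rows below the filter on low values have shares of 10.7% to 15.8%. Zfp988 (11.4%) averaged 10.1 ± 3.1 in HT vehicle and 4.35 ± 2.03 in WT vehicle, a log2 fold change of 1.13. Gm13212 (10.7%) averaged 10.1 ± 4.68 in HT vehicle and 4.61 ± 2.61 in WT vehicle, a log2 fold change of 1.03. Zfp986 (15.8%) averaged 9.23 ± 2.83 in HT vehicle and 5.82 ± 2.74 in WT vehicle, a log2 fold change of 0.60 (SD, n = 7 and 8 for each). A low share went with values between 0.06 and 1.13. This share covers Zfp991 and Zfp992 alone. With any other gene, Zfp988, Gm13212 and Zfp986 share 79.5%, 70.8% and 93.7% of their stretches, and they held 1 to 18 reads per library. Whether shared sequence bears on the values of these rows was not tested. The 30 tested genes of the stretch not classed as zinc finger rows by their symbol had a median of 0.01. They ran between -0.18 and 0.86, and 1 of them exceeded 0.5. That gene is the predicted gene Gm13238, which lies next to Zfp992 in the order of tested genes. Its sequence was not compared with that of the copies. Gm13238 averaged 16.9 ± 5.34 in HT vehicle (n = 7) and 8.96 ± 3.56 in WT vehicle (n = 8) and was not called there. Another predicted gene of the stretch, Gm13241, lies below the filter on low values. With no filter its log2 fold change was 1.51, and its sequence was not compared either. HT fluoxetine over WT vehicle called 2 of the 34, beside 1.49% of all genes, and HT lithium over WT vehicle 3, beside 1.97%, with the same WT libraries. Gm13238 was the one added under lithium (log2 fold change 0.96, limma adjusted p = 0.0263). Fluoxetine and lithium against vehicle called 0 of the 34 by limma and by edgeR, with 0 and 4 of them at an unadjusted p under 0.05.

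**Figure D4:**
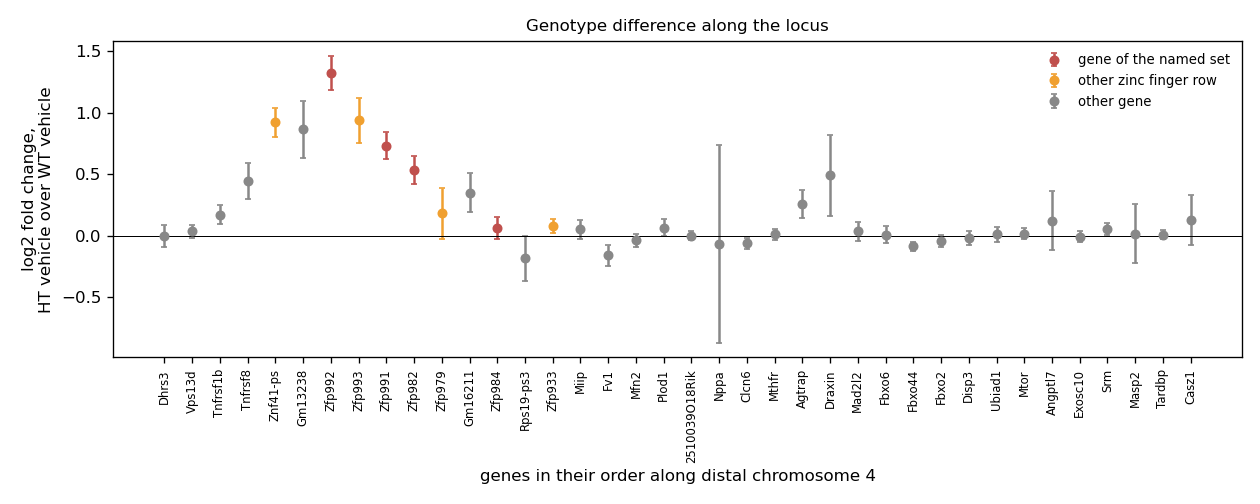
Log2 fold change of HT vehicle over WT vehicle, with its standard error, for the 38 tested genes of the locus in their order along the chromosome (rank, not distance). Red marks the 4 genes of the named set, orange other zinc finger rows and grey other genes. The values above 0.5 lie among neighbouring ranks between Znf41-ps and Zfp982.

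**Figure D5:**
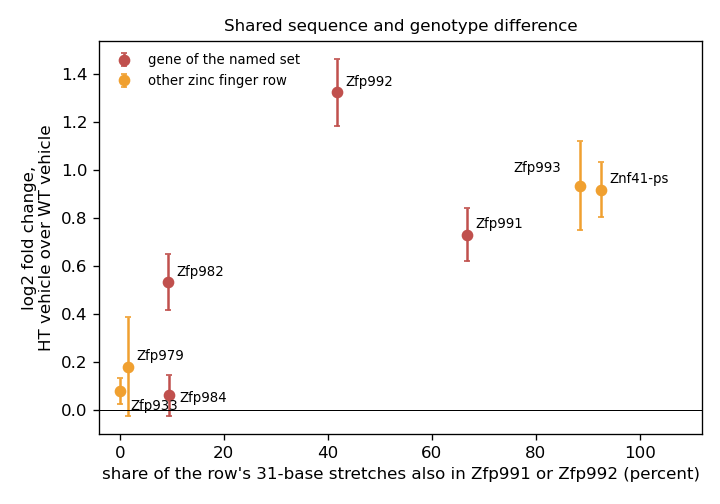
Percent of each tested zinc finger row's 31-base stretches that also occur in Zfp991 or Zfp992, itself left out (horizontal axis), against the log2 fold change of HT vehicle over WT vehicle with its standard error. Zfp993 and Znf41-ps, at 88.5% and 92.6%, stand at 0.94 and 0.92, and Zfp933, at 0%, stands at 0.08.

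Zinc finger genes in general were close to the median of all genes. Of the 371 tested genes named Zfp and a number that are not in the named set, 3 were called higher and 0 lower in HT vehicle over WT vehicle, close to the 0.731% called over all genes, and the median log2 fold change was -0.00, as over all genes. Besides Zfp993 they were Zfp783, a pseudogene on chromosome 6 (log2 fold change 0.56, limma adjusted p = 0.000679), and Zfp983 on chromosome 17 (0.22, limma adjusted p = 0.0419), which is named here because of the small count. Fluoxetine over vehicle called 0 of the 371 by limma and by edgeR, with 13 at an unadjusted p under 0.05. Lithium over vehicle called 2 higher by limma and by edgeR, beside 0.0892% of all genes. They were Zfp36l1, at 776 ± 61.8 in HT lithium and 610 ± 44.6 in HT vehicle (log2 0.34, limma adjusted p = 0.004), and Zfp36l2, at 722 ± 70.7 in HT lithium and 563 ± 56.6 in HT vehicle (0.36, limma adjusted p = 0.00404). Both encode RNA-binding proteins of the mRNA decay pathway and not KRAB zinc finger proteins, though their names put them in the list.

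Co-repressor genes and other chromatin genes were put in a co-repressor list of 25, all tested. It holds Trim28, Setdb1, Atf7ip, Cbx1, Cbx3, Cbx5, Chd4, Adnp, Adnp2, Dnmt1, Uhrf1, Morc3 and Daxx. The others are Atrx, Suv39h1, Suv39h2, Ehmt1, Ehmt2, Hdac1, Hdac2, Smarcad1, Trim24, Trim33, Resf1 and Zfp57. The list is thus wider than the co-repressors that KRAB zinc finger proteins act through. In HT vehicle over WT vehicle 1 of 25 was called higher and 0 lower, beside 0.731% of all genes, with a median of 0.02. It was Adnp, the gene the genotype alters (log2 fold change 0.26, limma adjusted p = 0.00996). Its count may be uncertain, since Gm20716 overlaps it as given above, but this was not tested. Trim28, the co-repressor that KRAB domains bind, differed by 0.02 on the log2 scale (limma adjusted p = 0.966), with 2454 to 3008 in HT and 2603 to 2877 in WT libraries. Setdb1, the methyltransferase that TRIM28 brings, had 0.02 (limma adjusted p = 0.972), with 1377 to 1627 in HT and 1305 to 1489 in WT libraries. Drug against vehicle called 0 of the 25 in HT mice by limma and by edgeR for either drug, with 2 at an unadjusted p under 0.05 for each.

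How the copies varied from library to library was described by the correlation of their deviations from the group means, over 30 libraries. All pairs share libraries, depth and, for the close copies, reads. Zfp991 correlated with Zfp992 at 0.45 and with Znf41-ps at 0.66. Zfp992 correlated with Zfp982 at 0.37 and with Zfp984 at 0.02, and Zfp982 with Zfp984 at 0.25. The reads behind the values numbered 18 to 94 per library for Zfp992, 70 to 197 for Zfp991, 38 to 81 for Zfp982 and 61 to 107 for Zfp984. The variance within groups was 1.5, 2.79, 1.43 and 0.938 times that of counting alone for these 4 genes. Most of the spread of Zfp992, Zfp982 and Zfp984 is thus of the size counting gives. The counting variance leaves out any error in dividing shared reads among copies.

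The genes whose levels ran most like the sum over the 30 libraries were sought among 13816 genes with a mean of at least 50. The highest Pearson correlations on the log2 scale were those of Znf41-ps (0.922), Rnf17, which encodes a tudor domain protein of germ cells (0.885), the protocadherin gene Pcdhga11 (0.871), the cell cycle transcription factor gene E2f2 (0.848), Zfp783 (0.845) and Dpm1, a subunit of dolichol-phosphate mannose synthase (0.841). All 6 had a lower mean in WT vehicle than in each HT group. The sum they were picked to follow is itself lower in WT vehicle, so nothing is read from that. Znf41-ps has 92.6% of its stretches in Zfp991 or Zfp992, which are part of the sum. Rnf17, for example, averaged 83.2 ± 15.3 in HT fluoxetine, 84.1 ± 8.23 in HT lithium, 79.3 ± 8.33 in HT vehicle and 30.5 ± 5.96 in WT vehicle. For deviations from the group means the highest were the kinase gene Ikbkb (0.757), the zinc finger gene Zfp445 (0.751) and the mitochondrial gene Dhtkd1 (0.745).

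Markers of other cell types were summed in the same libraries. The list whose deviations ran most with those of the sum of the 4 genes was the astrocyte list (4 of 4 markers in the table), at 0.53 over 30 libraries. It summed to 22860 to 27100 in HT fluoxetine, 22240 to 29540 in HT lithium, 21740 to 29090 in HT vehicle and 22790 to 28180 in WT vehicle, a log2 ratio of -0.02 for HT vehicle over WT vehicle. The striatal list (6 of 6) had a correlation of -0.43 and the olfactory bulb and neuroblast list (6 of 6) 0.42. The olfactory list summed to 1559 to 9307 in HT fluoxetine, 2168 to 18030 in HT lithium, 1802 to 16420 in HT vehicle and 1607 to 8992 in WT vehicle. The striatal list summed to 2944 to 23250 in HT fluoxetine, 2691 to 9424 in HT lithium, 2923 to 15830 in HT vehicle and 2947 to 15180 in WT vehicle. Of the germ cell list 3 of 5 markers were in the table, summing to 131.7 to 220.7 in HT vehicle and 167.2 to 182.6 in WT vehicle, and of 4 pluripotency markers 0 were. The part of these cell types in the values of the zinc finger genes was not tested.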

How the data were processed

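The authors' deposited values are a gene-level signal for 18240 genes in 30 libraries of mouse prefrontal cortex, made with the TruSeq Stranded mRNA kit per the labels' protocols. The submitters' processing notes list the build GRCm38 and the tools DESeq2 1.19.11, Salmon 0.11.2 and R 3.6.0. The sources used here do not give the filters, the annotation or how reads that match several copies were handled. From the values themselves, each column is a count divided by 1 size factor, and 100% of values came out as whole reads within 0.01. In 2 columns that step lay within 0.5% of 1. Replicates of a group differed by more than sampling noise in all 42 pairs (chi-square per degree of freedom 4.79 to 31.9), so each library counted once. The labels do not name separate mice, so p-values measure the spread between libraries, which may be technical, and counting variance covers counting error only.

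Groups were taken from the sample titles. Identifiers were matched to GENCODE M21, and 18227 of them had a symbol. Tests used limma 3.58.1 (trend and robust) in R 4.3.3 on log2(normalized count + 1) for 16824 genes with a mean of at least 10, with all libraries in 1 fit of 8 group means and 22 residual degrees of freedom. Each contrast averages both sexes. Low genes change more than fold changes on this scale show. The Benjamini-Hochberg adjustment ran over all genes tested, with calls at an adjusted p under 0.05. The edgeR 4.0.16 quasi-likelihood test and DESeq2 1.42.0 on the recovered reads were alternatives, besides other pseudocounts, filters, a replicate block and leaving out each library. The fit was tested on simulated data.

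The 31-base stretches and coding sequences come from GENCODE transcripts, and the promoters from RefSeq. Genes named with their values are the members, called neighbours, called genes of the co-repressor list, Trim28, Setdb1 and the genes of most similar pattern. Znf41-ps and Zfp993 were added as close copies, and Zfp979, Zfp933, Zfp986, Zfp988, Gm13212, Gm13241, Zfp983, Zfp36l1 and Zfp36l2 after their values were seen. Members and lists were chosen with earlier results of these data known.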

Additional observations from a re-analysis of the deposited data

Results flagged for a closer look

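Among 50 groups of 4, 7 or 8 libraries examined for the 4 genes and their sum, 8 held a library that stood far from the others. Chance alone flags about 1 in 20 groups, and the groups of both sexes and of 1 sex share libraries. Zfp992 was at 15.42 in WT vehicle male 2, the lowest of all 8 WT libraries, and again the lowest of the WT males. Zfp991 was at 208.3 in HT fluoxetine male 3, the highest of both the whole group and its males. HT lithium male 4 was the highest of the lithium group for Zfp982, at 91.08, and for the sum, at 488, and the highest of the lithium males for Zfp991, at 197.9. Zfp982 was at 38.55 in WT vehicle female 1, the lowest of the WT females.

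The log2 ratio of HT lithium to HT vehicle for the sum was 0.19 higher in males than in females. All 3 lithium females lay below the mean of the HT vehicle females (399), and all 4 lithium males above the mean of the HT vehicle males (375). This difference was not tested for the sum. For the single genes the interaction was tested and 0 of 4 were called, as given in the report.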

How the results depend on the processing

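The 720 values of the tested drug and sex comparisons, over the 4 genes and all alternatives run, kept their side of the threshold, with a lowest adjusted p of 0.309 by the test of each alternative. Of 292 described genotype values, 289 kept their direction. The exceptions were for Zfp984 in HT fluoxetine over WT vehicle, at -0.01 as reported, -0.05309 to 0.02019 over the libraries left out, and above 0 at 0.02019 without HT fluoxetine male 3, 0.01813 without WT vehicle female 2 and 0.01381 without WT vehicle female 3. Without Zfp991 and Zfp992 the log2 ratio of the sum to WT vehicle was 0.2572 for HT vehicle, 0.1385 for HT fluoxetine and 0.3543 for HT lithium. These 2 genes have the largest differences from WT vehicle of the 4 in each HT group. With each library left out, the log2 ratio of the sum of all 4 genes ran over 0.5729 to 0.6752, 0.4829 to 0.5724 and 0.6307 to 0.7201 for these groups. Within HT mice it ran over -0.1465 to -0.0461 for fluoxetine over vehicle, 0.0012 to 0.1016 for lithium over vehicle and -0.1696 to -0.1088 for fluoxetine over lithium. Called neighbours, 2 as reported, were 4 with no filter, where Gm13241 (log2 1.51, limma adjusted p = 0.000977) and Zfp988 (1.13, limma adjusted p = 0.0182) join, and 1 with a filter at a mean of 50, which tests fewer genes. Other zinc finger genes called, 3 as reported, were 1 with that filter and 2 to 4 with a library left out.

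Replicate numbers were shared between groups, and every same-numbered pair correlated at over 0.1 only in HT and WT vehicle males (0.17 to 0.278 in 3 of 3 pairs). In HT fluoxetine and HT vehicle females 3 of 4 pairs did, at up to 0.446, and the other was at -0.108. With the replicate block 0 of the 4 genes were called in every tested comparison. For the genotype, 2 neighbours, 2 other zinc finger genes and 1 gene of the co-repressor list were called. Depth limits Zfp992, with 18 reads in its lowest library, and shared sequence limits the split between copies.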
